A study of Mus musculus with 8 samples.

Results

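A set of 10 genes that restrain NF-kB signalling or are induced by it was followed in mouse peritoneal macrophages exposed to LECT2, a secreted protein whose name stands for leukocyte cell-derived chemotaxin 2: the inhibitors Nfkbia, Nfkbib, Nfkbie, Nfkbid and Nfkbiz, and the feedback genes Tnfaip3, Tnip1, Tnip3, Traf1 and Tnfaip2. They were found by the RefSeq transcript accession that the scanner files give for each probe, which selected 15 probes for these 10 genes, out of 26148 genes tested. All 10 genes passed the filter on dim probes, and 14 of the 15 probes were well above background in both channels on all 8 arrays. The groups were cells given 0.5 µg/ml (low dose) or 5 µg/ml (high dose) LECT2 for 48 h, and cells given the same doses for 3.5 h, each set against cells given 0 µg/ml LECT2 for the same time. Every group had 2 arrays, numbered replicate 1 and replicate 2, from independent experiments on different mice. All cells, controls included, were plated in low-glucose medium with 20% fetal bovine serum. Strain, age and sex of the mice are not given in the labels. On each array the RNA of LECT2-treated cells carried Cy3 and that of the control cells Cy5. The dyes were not swapped, so a dye effect on a probe and a LECT2 effect cannot be told apart.

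NF-kB is a family of dimeric transcription factors that mediates much of the inflammatory gene expression of macrophages. In resting cells the classical IkB proteins hold the dimers in the cytoplasm; a stimulus leads the IKK complex to phosphorylate them, they are degraded, and the dimers enter the nucleus. Several genes that the dimers switch on encode brakes on the same pathway, among them IkBα itself and the ubiquitin-editing enzyme A20, and their transcripts are commonly used as readouts of recent NF-kB activity.

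The promoters are shown because all 10 members were higher at the high dose and 3.5 h. RefSeq promoter sequences (build GRCm38.p6) matched 9 of the 10 genes, as 12 promoters; Nfkbiz had no entry. The 250 bases before the transcript start are given 5′ to 3′ on the gene's strand, with matches to the kB consensus in capitals. The consensus searched was GGG, any purine, any 2 bases, 2 pyrimidines and CC, on both strands. The promoters printed are those of Nfkbia at chr12:55492648-55492897 (minus strand), Tnfaip3 at chr10:19015411-19015660 (minus strand), Tnip1 at chr11:54962941-54963190 (minus strand) and Traf1 at chr2:34961773-34962022 (minus strand).
Nfkbia: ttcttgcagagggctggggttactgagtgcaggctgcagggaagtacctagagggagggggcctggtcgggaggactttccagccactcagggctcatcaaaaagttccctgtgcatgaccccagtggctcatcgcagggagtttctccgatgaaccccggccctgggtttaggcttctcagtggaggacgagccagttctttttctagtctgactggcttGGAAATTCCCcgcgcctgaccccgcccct
Tnfaip3: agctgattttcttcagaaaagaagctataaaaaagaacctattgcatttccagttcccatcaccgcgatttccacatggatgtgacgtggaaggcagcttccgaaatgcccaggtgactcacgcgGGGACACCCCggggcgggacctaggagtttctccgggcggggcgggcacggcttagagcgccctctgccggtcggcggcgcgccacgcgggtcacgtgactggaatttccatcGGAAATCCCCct
Tnip1: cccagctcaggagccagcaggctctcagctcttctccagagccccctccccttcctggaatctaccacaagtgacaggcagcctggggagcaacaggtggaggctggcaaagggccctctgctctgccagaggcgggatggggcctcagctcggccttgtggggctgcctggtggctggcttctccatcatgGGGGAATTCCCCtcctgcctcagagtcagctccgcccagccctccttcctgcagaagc
Traf1: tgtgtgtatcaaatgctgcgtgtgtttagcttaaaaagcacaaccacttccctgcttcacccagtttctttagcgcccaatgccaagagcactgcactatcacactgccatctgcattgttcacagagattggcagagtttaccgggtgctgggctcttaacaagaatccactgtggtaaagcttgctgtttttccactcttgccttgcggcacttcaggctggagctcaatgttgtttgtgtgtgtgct
The Nfkbia window held 1 match, which ends 20 bases before the start. The Tnfaip3 window printed held 2, while a second Tnfaip3 promoter (chr10:19011964-19012213) held 0, and the Tnip1 window 3 that overlap each other. Of the other genes, Nfkbie held GGGGGATTCC, Tnip3 held GGGAAATCCC, Tnfaip2 held GGAGGGCCCC, and the second of 3 Nfkbid promoters held GGGACTTCCC and GGAATTCCCC. In all, 7 of the 9 genes (7 of 12 promoters) held at least 1 match, against 7.25% of 32851 promoters of the same length. The windows of Traf1 and Nfkbib held no such letters. A match is a description of sequence and was not tested for binding.

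The deposited values are log2 ratios of control over LECT2, the opposite of the order in the sample titles, and their sign was turned here, so that a positive value is higher in LECT2-treated cells. That direction rests on the dyes in the labels and on the agreement of the values with the scanners' Cy5 over Cy3 ratio. The assignment of files to samples was in conflict. In 7 of the 8 columns of the deposited table, the scanner file whose ratios follow the column most closely is recorded under another sample. The 4 columns of the 48 h arrays matched a file at r = 1.0, with 86.4% to 88.4% of probes within 0.01 of it. Of the 3.5 h columns, 3 followed a file at r = 0.996 to 0.998, with only 7.4% to 9.0% of probes within 0.01, and replicate 1 of the low dose matched its own file at r = 0.841, against 0.678 for the next best file. The results below follow the columns of the table. With the scanner files taken as recorded, 0 of the 10 members were called in any comparison. Over all genes 43 were then called at the low dose and 48 h, 1 at the high dose and 48 h, and 0 in every other comparison. Of the members, 10, 10, 10 and 9 still had positive LECT2 effects, in the order low then high dose, first for 48 h and then for 3.5 h. In the same order the members' medians were then 2.19, 1.45, 1.35 and 1.51, against 0.22, 0.44, 2.68 and 3.05 by the table's columns, so the size of the effects at 48 h and the order of the times depend on the assignment. Which assignment holds cannot be settled from these files. Where the files follow the columns, the 48 h arrays share slide 2 and the 3.5 h arrays slide 1, so that time and slide cannot be told apart.

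At 48 h the high dose left 3 of the 10 genes higher than in control cells and 1 lower. Traf1 was 11-fold higher, Nfkbia 3.08-fold and Tnfaip3 2.37-fold, and Nfkbid was 2.02-fold lower (limma, adjusted p under 0.05 over all genes tested). At this dose and time 4.31% of all genes were called higher and 6.91% lower. At the low dose 0 of the 10 genes were called, against 0.153% of all genes called higher and 0.0191% called lower. Of the members, 1 (Traf1) had an unadjusted limma p under 0.05, as did 2639 of the 26148 genes tested. The members' median was 0.22 at the low dose and 0.44 at the high dose, and that of all genes 0.02 and -0.01. The calls at the high dose rest on both experiments. Without replicate 1, 0 members and 14 of all genes were called, and without replicate 2 only Traf1 and 57 of all genes, against 2933 genes with both. The log2 ratios of the called members in each replicate alone are given below.

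Traf1 encodes an adaptor of the TRAF family that binds TNF-receptor family members and other TRAFs. At 48 h its log2 ratio was 1.16 and 0.77 at the low dose and 3.70 and 3.23 at the high dose. The high-dose arrays lay above the low-dose arrays, with no overlap. The high-dose mean was 3.47 ± 0.25 (SE, n = 2, limma adjusted p = 0.00207), and the low-dose mean of 0.96 ± 0.25 did not pass (adjusted p = 0.228). Each SE given here comes from the limma fit, with 1 variance per gene pooled over the groups and moderated across genes. It is therefore not the spread of the 2 arrays of a group. The signals behind these ratios, in log2 units from the files matched to the columns, were 11.44 and 11.62 in LECT2-treated cells of the high dose, against 8.24 and 8.72 in their controls. At the low dose they were 8.90 and 9.25, against 8.60 and 8.70 in controls.

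Among the classical IkB genes, Nfkbia encodes IkBα, which retains NF-kB in the cytoplasm and is itself a target of it. Its log2 ratio at 48 h was 0.87 and -0.19 at the low dose and 1.97 and 1.27 at the high dose. All high-dose values lay above all low-dose values, and the low-dose arrays fell on both sides of 0. The high-dose mean was 1.62 ± 0.32 (SE, n = 2; limma, adjusted p = 0.0225). Nfkbie encodes IkBε, a related inhibitor. Its ratios were 0.88 and -0.42 at the low dose and 1.45 and 0.73 at the high dose, where the mean of 1.09 ± 0.33 did not pass (limma, adjusted p = 0.0759, 95% interval 0.32 to 1.86). Nfkbib, encoding IkBβ, stood at 0.07 and 0.35 at the low dose and -0.02 and 0.17 at the high dose (high-dose interval -0.46 to 0.61).

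For 7 of the 10 genes the replicates at 48 h differed more in the control channel than in the LECT2 channel, and for Nfkbid, Tnfaip2 and Tnip1 more in the LECT2 channel. For Nfkbia the LECT2 signal was 13.30 and 13.22 at the low dose and 14.39 and 14.54 at the high dose, while the control signal was 12.47 and 13.40 on the low-dose arrays and 12.43 and 13.33 on the high-dose arrays. Over the 10 genes at 48 h, replicates differed by a median of 0.16 in the LECT2 channel and 0.36 in the control channel, and the control signals of same-numbered low- and high-dose arrays by a median of 0.08. Nfkbie had the same arrangement, with control signals of 9.26 and 9.22 in replicate 1 and 10.19 and 10.20 in replicate 2.

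Nfkbid and Nfkbiz encode nuclear IkB proteins, which act on NF-kB bound to DNA and can raise as well as restrain transcription. Nfkbid had ratios of -0.27 and 0.03 at the low dose and -0.80 and -1.23 at the high dose at 48 h. The high-dose mean was -1.01 ± 0.23 (SE, n = 2; limma, adjusted p = 0.034). Its signal there was 10.07 and 9.83 in LECT2-treated cells, against 10.74 and 10.92 in controls, with no overlap. It was not called from the 48 h arrays alone (adjusted p = 0.057 by limma). Nfkbiz had ratios of 0.40 and -0.43 at the low dose and 0.60 and -0.08 at the high dose, so its arrays fell on both sides of 0 at each dose (high-dose adjusted p = 0.689 by limma).

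Tnfaip3 encodes A20, which removes activating ubiquitin chains upstream of IKK, and Tnip1 and Tnip3 encode ABIN proteins that bind A20. Tnfaip3 had ratios of 0.42 and 0.15 at the low dose and 1.41 and 1.08 at the high dose at 48 h. Its high-dose mean was 1.24 ± 0.23 (SE, n = 2; limma, adjusted p = 0.0192), with signals of 12.88 and 13.10 in LECT2-treated cells, against 11.52 and 12.02 in controls. Its partners were not called. Tnip1 had ratios of -0.25 and -0.26 at the low dose and 0.73 and 0.52 at the high dose (high-dose adjusted p = 0.0896 by limma, 95% interval 0.15 to 1.10). Tnip3 had 0.82 and 0.02 at the low dose and 0.37 and 0.03 at the high dose. Tnfaip2, a TNF-induced gene that encodes M-Sec, a protein known for its part in membrane nanotubes, had 0.25 and 0.13 at the low dose and -0.15 and -0.27 at the high dose (high-dose interval -0.71 to 0.30).

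Scaling bears on the values at both times. With the matched scanner files centred on the array median instead of fitted by loess, the median of all genes was -0.14 at the low dose and -0.24 at the high dose, and -0.13 and -0.26 at 3.5 h. Under that scaling Traf1 remained called higher and Nfkbid lower at the high dose and 48 h, Nfkbia stood at 0.85 (limma, adjusted p = 0.0696) and Tnfaip3 at 0.47 (adjusted p = 0.186), and Tnfaip2 was called lower at -0.93 (adjusted p = 0.00896). The members' median at 48 h was then -0.32 at the low dose and -0.20 at the high dose. At 3.5 h it was 2.14 and 2.22, and Nfkbid stood at -0.06 at the low dose and 0.27 at the high dose (high-dose adjusted p = 0.398 by limma).

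**Figure D1:**
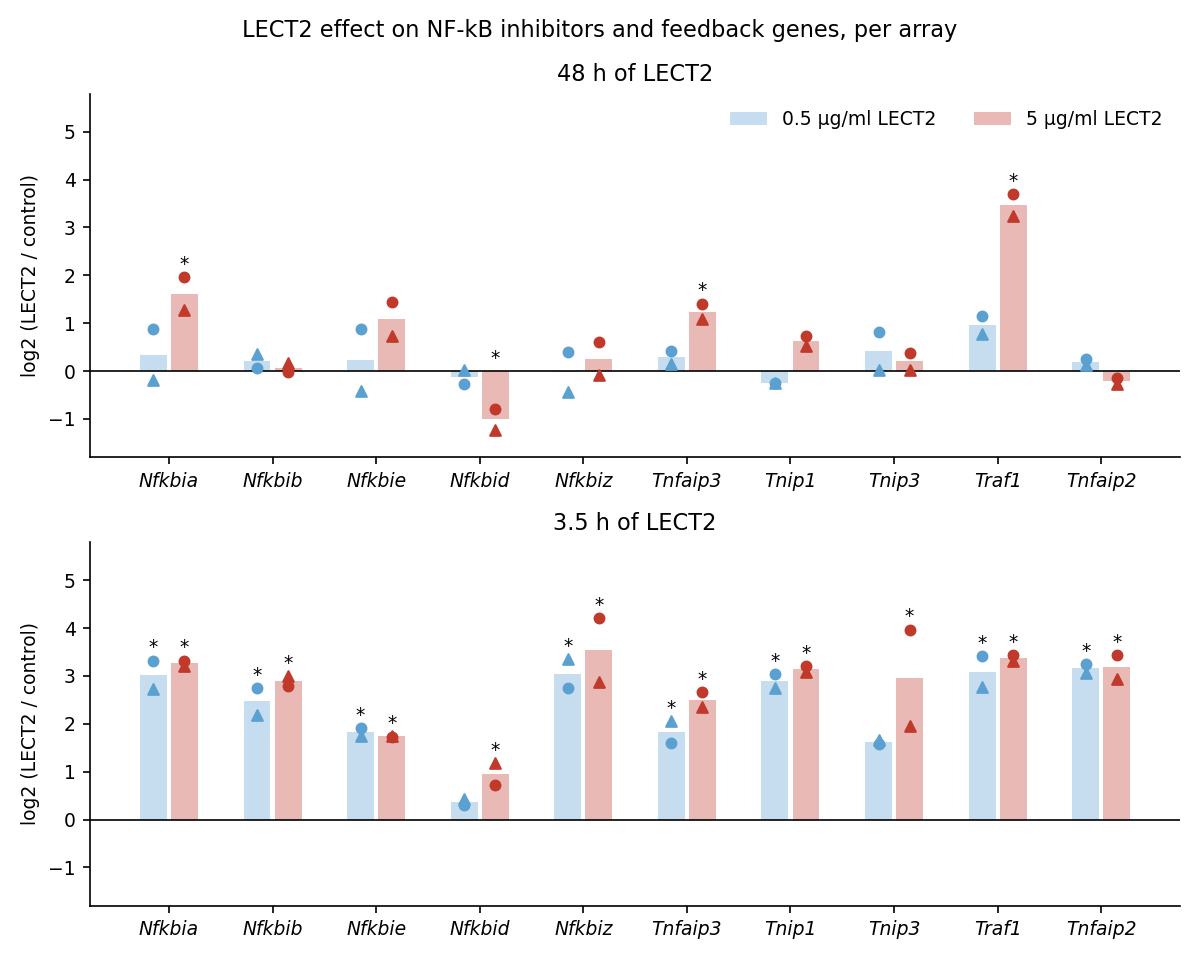
Log2 ratio of LECT2-treated over control cells for the 10 genes, at 48 h (top) and 3.5 h (bottom). Blue is 0.5 µg/ml and red 5 µg/ml; bars are means of 2 arrays, circles replicate 1, triangles replicate 2, and an asterisk marks a gene called by limma at an adjusted p under 0.05. At 48 h the red Traf1 bar, at 3.47, stands above all others, and Nfkbid at -1.01 is the only called bar below 0.

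At 3.5 h 8 of the 10 genes were called higher at the low dose and all 10 at the high dose, with 0 lower at either. Over all genes, 2.75% were called higher and 2.15% lower at the low dose, and 10.2% higher and 11.7% lower at the high dose. The members' median log2 ratio was 2.68 at the low dose and 3.05 at the high dose, and that of all genes 0.00 and -0.03. Nfkbiz (11.6-fold), Traf1 (10.3-fold), Nfkbia (9.63-fold) and Tnfaip2 (9.13-fold) had the highest folds at the high dose. Without replicate 1, whose low-dose array matched its file least well, the members' median was 2.46 at the low dose and 2.91 at the high dose. Without replicate 2 it was 2.75 and 3.27. Fewer members passed the threshold in each of those fits, which have 1 array in the group.

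The classical IkB genes rose at both doses. Nfkbia had log2 ratios of 3.32 and 2.73 at the low dose and 3.32 and 3.21 at the high dose, with high-dose signals of 17.01 and 16.67 in LECT2-treated cells, against 13.22 and 13.39 in controls. Its mean was 3.03 ± 0.32 at the low dose (SE, n = 2; limma, adjusted p = 0.00487) and 3.27 at the high dose (adjusted p = 0.0013). Nfkbib had 2.75 and 2.18 at the low dose and 2.79 and 3.00 at the high dose, a mean of 2.89 (limma, adjusted p = 0.000711). Nfkbie rose less, with 1.91 and 1.75 at the low dose and 1.73 and 1.75 at the high dose, a mean of 1.74 (limma, adjusted p = 0.0111). For each of these genes the LECT2 and control signals did not overlap at 3.5 h.

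The nuclear IkB genes differed from each other. Nfkbiz had ratios of 2.75 and 3.35 at the low dose and 4.21 and 2.87 at the high dose, a mean of 3.54 (limma, adjusted p = 0.00165). Nfkbid had 0.30 and 0.42 at the low dose, which did not pass (limma, adjusted p = 0.413), and 0.73 and 1.18 at the high dose, a 1.93-fold rise (adjusted p = 0.0254) that did not pass from the 3.5 h arrays alone (adjusted p = 0.0611) or with median centring. Nfkbid was the member with the smallest ratio at each dose at 3.5 h. It was not called at the high dose when either replicate was left out, and the same held for Nfkbie.

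Tnfaip3 had ratios of 1.59 and 2.05 at the low dose and 2.66 and 2.35 at the high dose, a mean of 2.50 (limma, adjusted p = 0.00109). Tnip1 had 3.04 and 2.75 at the low dose and 3.21 and 3.09 at the high dose, a mean of 3.15 (adjusted p = 0.00047 by limma). Tnip3 was the least even between experiments, with 1.58 and 1.67 at the low dose (limma, adjusted p = 0.0803, not called) and 3.97 and 1.95 at the high dose, a mean of 2.96 (adjusted p = 0.00481). Traf1 had 3.41 and 2.76 at the low dose and 3.43 and 3.31 at the high dose, a mean of 3.37 (limma, adjusted p = 0.000616). Tnfaip2 had 3.25 and 3.06 at the low dose and 3.44 and 2.94 at the high dose, a mean of 3.19 (limma, adjusted p = 0.000498), with LECT2 signals of 17.36 and 16.83 at the high dose, against 13.66 and 13.96 in controls.

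**Figure D2:**
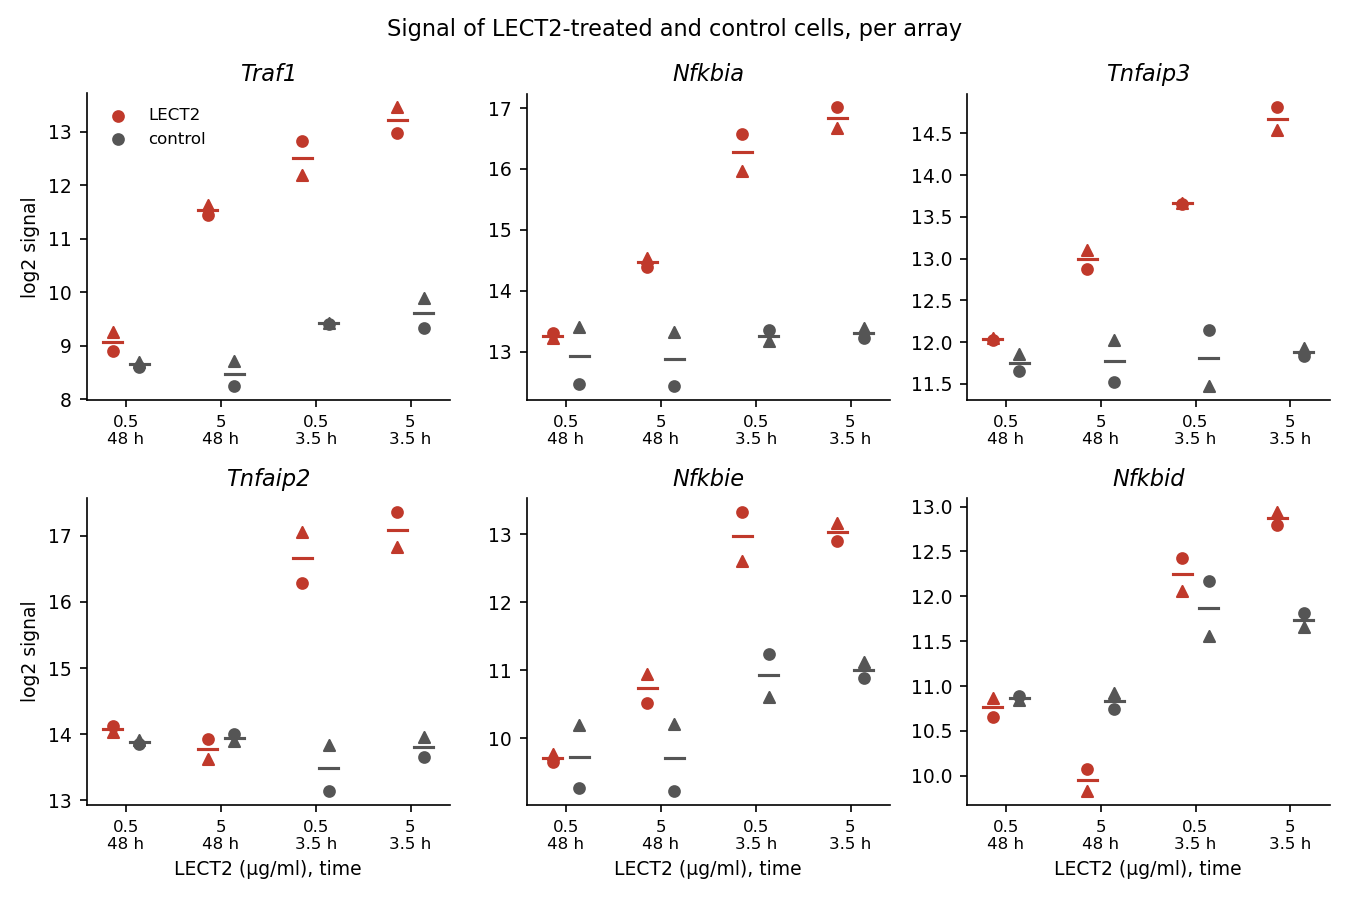
Log2 signal of 6 of the genes in LECT2-treated cells (red) and control cells (grey), from the scanner files matched to the table's columns, by dose in µg/ml and time; circles are replicate 1, triangles replicate 2 and lines their means. For Traf1 at 5 µg/ml and 48 h the LECT2 signal was 11.44 and 11.62, against 8.24 and 8.72 in controls; the axes differ between genes because levels of different probes are not comparable.

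The doses were compared directly at each time. None of the 10 genes was called at 48 h or at 3.5 h, and limma called 0% of all genes at either time (2738 genes at 48 h and 2048 at 3.5 h had an unadjusted p under 0.05). At 48 h 5 members had an unadjusted p under 0.05, and at 3.5 h 0 did. This fit did not pair same-numbered arrays, whose deviations correlated between the doses at r = 0.47 at 48 h and 0.04 at 3.5 h. With a replicate block, a single term shared by the arrays of both times, 0 genes were called at either time. Between the times the deviations correlated at only r = -0.06 to 0.2, so this block could not account for pairing within 48 h. A fit paired within 48 h was not run. Traf1 had the largest difference, high minus low, of 2.50 ± 0.36 at 48 h (limma, adjusted p = 0.134, 95% interval 1.67 to 3.33), it was called in both alternatives that normalised the matched scanner files by loess or by the array median, and with the files as recorded it was -1.36. The other 4 were Nfkbia at 1.28, Tnfaip3 at 0.96, Nfkbid at -0.89 and Tnip1 at 0.88, with adjusted p from 0.388 to 0.42. At 3.5 h the differences lay between -0.09 for Nfkbie and 1.33 for Tnip3, and the interval of Tnip3, -0.12 to 2.79, was the widest. For Tnfaip2 at 3.5 h the interval was -0.68 to 0.75, and for Traf1 -0.55 to 1.11.

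Between the times, the LECT2 effect of 6 genes was lower at 48 h than at 3.5 h at the high dose and that of 2 genes at the low dose. Over all genes, 3.78% were called lower at 48 h at the high dose and 0.0841% at the low dose. The called genes at the high dose were Tnfaip2 (-3.40 on the log2 scale), Nfkbiz (-3.28), Nfkbib (-2.82), Tnip3 (-2.76), Tnip1 (-2.53) and Nfkbid (-1.96), with adjusted p from 0.00816 to 0.0405 in limma. At the low dose they were Tnip1 (-3.15 ± 0.29, adjusted p = 0.022) and Tnfaip2 (-2.97 ± 0.31, adjusted p = 0.0321). Leaving out either replicate left 0 members called at either dose. In those fits 0 of all genes were called at the high dose, and 0 or 39 at the low dose, while the members' medians stayed between -2.01 and -2.30. With the scanner files as recorded the members' median difference was 0.85 at the low dose, with 9 of 10 positive, and -0.21 at the high dose, with 4 of 10 positive. The members' median difference was -2.19 at the low dose and -2.25 at the high dose, and that of all genes 0.02 and -0.04.

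At the high dose 4 genes were not called between the times. Traf1 had an effect of 3.47 at 48 h and 3.37 at 3.5 h, a difference of 0.10 ± 0.36 (limma, adjusted p = 0.888, 95% interval -0.73 to 0.93). Nfkbie differed by -0.65 (interval -1.75 to 0.44). Nfkbia and Tnfaip3 missed the threshold at -1.65 (adjusted p = 0.0633 by limma) and -1.26 (adjusted p = 0.0554). As a share of its log2 ratio at 3.5 h, the high-dose ratio at 48 h was 103% for Traf1, 62.6% for Nfkbie, 49.6% for Tnfaip3, 49.5% for Nfkbia and 19.7% for Tnip1. For Nfkbiz, Tnip3 and Nfkbib it was 7.3%, 6.8% and 2.4%, and for Tnfaip2 and Nfkbid the ratio at 48 h was below 0. At the low dose the highest share was 31.1%, for Traf1. These shares depend on the scaling and the assignment. With median centring they were 84.5% for Traf1, 28.3% for Nfkbie, 25.3% for Tnfaip3 and 33.9% for Nfkbia at the high dose, and Tnip1 was below 0 at 48 h. With the files as recorded they were 72.4%, 59.1%, 86.0% and 77.5% for the same genes, and 88.9% for Tnip1. Across the 8 arrays every 48 h ratio lay below every 3.5 h ratio for 9 of the genes, and only for Traf1 did the times overlap.

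The LECT2 signal of Traf1 itself was lower at 48 h. At the high dose it was 11.44 and 11.62 at 48 h, against 12.98 and 13.45 at 3.5 h, and the control signal was 8.24 and 8.72 at 48 h, against 9.34 and 9.90 at 3.5 h. Both channels were lower at 48 h on each array, with no overlap between the times.

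**Figure D3:**
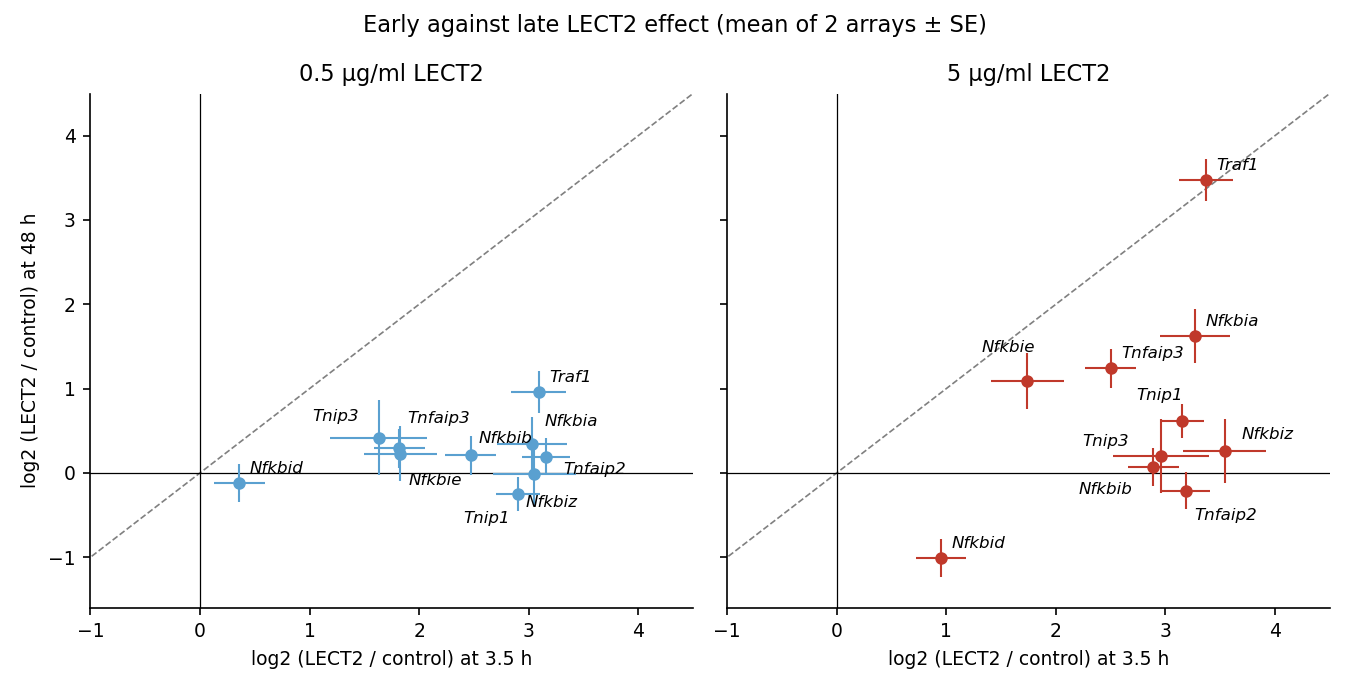
Log2 ratio of LECT2-treated over control cells at 48 h (vertical axis) against 3.5 h (horizontal axis) for the 10 genes, at 0.5 µg/ml (left) and 5 µg/ml (right). Points are means of 2 arrays, and the dashed line marks equal values. Bars are SE from the limma fit, with a variance pooled over the groups, and not the spread of the 2 arrays. At 5 µg/ml Traf1 lies on the line, Nfkbie, Nfkbia and Tnfaip3 between the line and 0, and Tnfaip2 and Nfkbid below 0.

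Genes with several probes allowed a check. The 2 Tnfaip2 probes were near equal in all groups, at -0.21 and -0.16 at the high dose and 48 h and at 3.19 and 3.18 at the high dose and 3.5 h. The second Tnip1 probe gave 0.85 where the first gave 0.62 at the high dose and 48 h. The other Nfkbib probes gave -0.48 and -0.03 there, against 0.07 for the probe used, and 2.28 and 2.08 at the high dose and 3.5 h, against 2.89. The second Tnip3 probe, well above background on 3 arrays in the LECT2 channel and on 1 in the control channel, gave -0.33 at the high dose and 48 h, against 0.20 for the probe used. At 3.5 h it gave 2.51 at the low dose and 2.46 at the high dose, against 1.63 and 2.96. The higher value at the high dose and 3.5 h was thus not seen on the second, dim probe.

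The genes for the NF-kB subunits were also called higher at 3.5 h. Of 7 genes for NF-kB subunits and relatives, 0 were called at the low dose and 2 at the high dose at 48 h (both higher), and 5 and 6 were called higher at 3.5 h. At the high dose and 48 h the called genes were Relb (1.06, adjusted p = 0.0236 by limma) and Nfkb2 (0.90, adjusted p = 0.0322), the partners of the non-canonical pathway. Rel, Rela, Nfkb1 and Bcl3 stood at 0.17, -0.08, -0.19 and 0.08 there, and Nkap at 0.39. At the high dose and 3.5 h Nfkb2 stood at 2.69, Nfkb1 at 2.16, Bcl3 at 2.06, Rel at 1.88, Relb at 1.87 and Rela at 1.40, all called, and Nkap, which encodes an NF-kB activating protein, at -0.62 (adjusted p = 0.146). Between the times at the high dose 5 of the 7 were lower at 48 h, from -2.35 for Nfkb1 to -1.49 for Rela. Relb differed by -0.81 (adjusted p = 0.134 by limma). The shares of all genes called higher were 0.153% (low dose) and 4.31% (high dose) at 48 h, and 2.75% and 10.2% at 3.5 h. Between the times at the high dose, 3.78% of all genes were called lower at 48 h.

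Of 27 tested cytokine and other targets of NF-kB, 1 was called higher at the low dose and 12 at the high dose at 48 h, with 1 lower at the high dose. At 3.5 h 18 and 23 were called higher. At the high dose and 48 h Cxcl3 (5.76), Il1b (4.70), Ccl5 (4.57) and Saa3 (3.39) had the highest log2 ratios, and at 3.5 h Csf3 (6.86), Il23a (6.02), Il1a (5.94) and Ptgs2 (5.93). At the low dose and 48 h the called target was Ccl5, a chemokine (3.16, adjusted p = 0.0152 by limma). At the high dose 11 targets were lower at 48 h than at 3.5 h, among them Il23a (-6.05), Csf3 (-5.94) and Tnf (-5.32). Among all genes tested, 0.153% (low dose) and 4.31% (high dose) were called higher at 48 h, and 2.75% and 10.2% at 3.5 h. For the high dose, 6.91% were called lower at 48 h, and 3.78% were called lower at 48 h than at 3.5 h.

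A list of 28 other genes held brakes on inflammatory signalling along with other regulators of it, Rnf31, Rbck1 and Sharpin among them. Of these 28 genes, 5 were called higher at the high dose and 48 h and 15 at the high dose and 3.5 h. At the low dose 0 and 8 were called higher, and 1 was lower at each dose at 3.5 h. Socs3 and Socs1, suppressors of cytokine signalling, stood at 2.30 and 2.23 at the high dose and 48 h, and at 2.97 and 3.32 at the high dose and 3.5 h. Nlrc5 (1.78) and Rnf31 (1.03) were also higher at 48 h. Of 24 kinases and adaptors upstream of NF-kB, 3 were called higher at the high dose and 48 h (Tbk1 at 1.27, Traf5 at 0.99 and Traf3 at 0.90). At the high dose and 3.5 h 8 were called higher, led by Myd88 (2.29), and 2 lower. Over all genes at the high dose, 4.31% were called higher at 48 h, and 10.2% higher and 11.7% lower at 3.5 h. The low-dose shares were 0.153% higher at 48 h, and 2.75% higher and 2.15% lower at 3.5 h. Of 8 other genes for TNF-induced proteins and for receptors or ligands of the TNF family, 2 were called higher at the high dose and 48 h. They were Tnfsf9, a ligand gene (2.65), and Tnfaip6 (1.69).

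**Figure D4:**
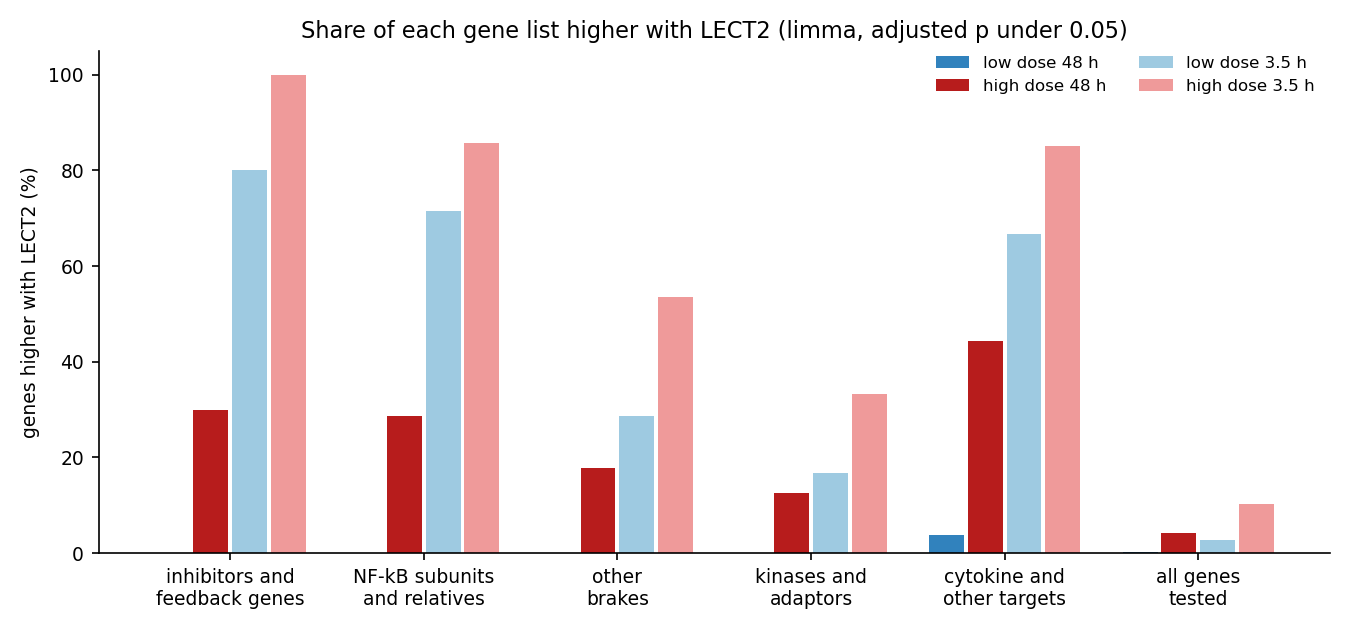
Share of each gene list called higher with LECT2 (limma, adjusted p under 0.05), by dose and time, with all genes tested at the right. At 5 µg/ml and 48 h 3 of the 10 inhibitors and feedback genes and 12 of 27 targets were called, against 4.31% of all genes. The list labelled other brakes also holds other regulators of inflammatory signalling.

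The most similar genes were sought by the root mean square difference of the log2 ratio over the 8 arrays, among 16753 named genes, as a description. Traf1 was nearest to Il6, at 0.51, followed by Gpr31b and Xpnpep2. Nfkbia was nearest to Cd40 (0.39), Tnfaip3 to Rab11fip1 (0.30) with Nfkb2 in the third place (0.33), Nfkbib to Gadd45b (0.28), Nfkbie to Mgat4a (0.32), Nfkbid to Pcsk7 (0.19) and Tnip3 to Il1rn (0.39). Tnip1 and Nfkbiz shared Zbtb46 as their nearest gene (0.26 and 0.46). Of the 30 neighbours named in this way, 2 were themselves members: Tnfaip2 beside Nfkbiz and Nfkbib beside Tnfaip2.

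The arrays carried signal for macrophage markers. Of 11 tested macrophage markers, 11 were well above background in both channels on all 8 arrays, Adgre1, Csf1r and Itgam included. Of these, 10 were not called at the high dose and 48 h, and Gata6, a transcription factor of resident peritoneal macrophages, was lower (-1.35, adjusted p = 0.0124 by limma). The range over all 11, Gata6 included, was -1.35 to 1.57. At 3.5 h Gata6 was lower (-1.03) and Timd4 higher (1.11) at the low dose, and Lyz2 (-2.01) and Csf1r (-1.03) were lower and Cd14 higher (2.77) at the high dose. T and NK cell markers were also present, with 7 of 8 above background on all arrays. Of 35 tested markers of other cell types, 4 were called higher and 2 lower at the high dose and 48 h, and 8 higher and 1 lower at the high dose and 3.5 h. Over all genes at the high dose, 4.31% were called higher and 6.91% lower at 48 h, and 10.2% and 11.7% at 3.5 h. At the low dose and 3.5 h these shares were 2.75% and 2.15%. Of the 5 dendritic cell markers, 1 was called higher at the high dose and 48 h (list range 0.23 to 1.28) and 4 at the high dose and 3.5 h (0.62 to 3.31). Among 5 tested neutrophil markers S100a8 was called higher at the high dose and 48 h (2.99; list range -1.55 to 2.99). The part of these markers' cells in the results above was not tested, and a change in the number of cells of a type cannot be told apart from a change in RNA per cell.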

How the data were processed

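RNA of LECT2-treated and control cells was hybridised together on 8 Agilent 2-colour arrays, per the labels. Scanner files were made with Agilent Feature Extraction 10.7.3.1, per the submitters' processing notes; per the file headers they hold intensity (spot, background and processed) and a log10 ratio with Cy5 on top. The deposited table holds log2 values, 1 column per sample; how the authors normalised it is not given in the sources used here. The early time follows the titles (3.5 h); the channel labels give a shorter one.

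Minus the deposited log2 value was analysed. A probe was kept if it was well above background on 2 or more of the 8 arrays in at least 1 channel (31615 probes), probes were named through a RefSeq table (GRCm38.p6, names only; the array design used another build), and the brightest probe stood for a gene (26148 genes, 16754 with a symbol). limma 3.58.1 in R 4.3.3 fitted 4 group means on 4 residual degrees of freedom, with Benjamini-Hochberg adjustment over all genes at 0.05. Signals by channel came from the matched scanner files after normexp (offset 50), loess and Aquantile scaling. Spots above background made up 56.4% to 71.7% of an array in the LECT2 channel and 63.6% to 82.3% in the control channel, 0 were saturated, and replicates correlated across genes at r = 0.352 to 0.721. With 2 arrays a group, the number of arrays limits the precision.

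Same-numbered replicates deviated together at r = -0.06 to 0.47 across genes, with the highest value between the doses at 48 h. The main fit was not paired, because this did not hold for all groups. At 48 h the effects of the low and high dose are therefore not independent. A replicate block, a single term shared by the arrays of both times, was tried as an alternative. The 10 members and the gene lists were chosen with earlier results of these data known. All 10 members were named in each comparison, every subunit, and up to 4 called genes of each other list. The script was tested on simulated data. Bcl2a1a, Bcl2a1b, Il12b, Tnfaip8l3, Cd68 and Ly6g passed no filter and were not tested. The 10 alternatives tried changed the source of the ratios, the normalisation, the filter, the probe rule, the samples or the replicate block.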

Additional observations from a re-analysis of the deposited data

Results flagged for a closer look

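The LECT2 effect of 6 members differed between the times at the high dose by a test of the difference itself (limma contrast, 48 h minus 3.5 h, adjusted over all genes). The differences were -3.40 for Tnfaip2, -3.28 for Nfkbiz, -2.82 for Nfkbib, -2.76 for Tnip3, -2.53 for Tnip1 and -1.96 for Nfkbid on the log2 scale, each lower at 48 h on both arrays. At the low dose the same test called Tnip1 (-3.15) and Tnfaip2 (-2.97). Among all genes tested, 3.78% were called lower at 48 h at the high dose and 0.0841% at the low dose. For Nfkbid the ratio was below 0 at 48 h (-0.80 and -1.23) and above 0 at 3.5 h (0.73 and 1.18) at the high dose. These calls rest on both experiments and on the table's columns. With the scanner files as recorded, 0 members were called at either dose. The members' median difference was then 0.85 at the low dose and -0.21 at the high dose.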

How the results depend on the processing

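Over the 10 alternatives, 684 of 780 values of single members kept their side of the threshold, 66 lost the call, 22 gained it, and 8 changed sign from a called value. Called or not, 714 kept their sign; of the 66 that did not, 35 came from the scanner files as recorded and 13 from median centring. The low dose at 48 h and the dose difference at 3.5 h had 0 members called throughout. With the scanner files as recorded, 0 members were called in any comparison, and the called values that changed sign were Nfkbid at -0.29 (high dose, 3.5 h) and 0.66 (high dose, 48 h), and the time differences of Tnfaip2 (0.10) and Tnip1 (0.86) at the low dose and of Nfkbib (0.49), Nfkbid (0.96), Tnfaip2 (0.02) and Tnip3 (0.20) at the high dose. Called or not, 9 of 10 time differences at the low dose and 4 of 10 at the high dose were then positive, against 0 and 1 by the table's columns. Over all genes the files as recorded gave 43 calls at the low dose and 48 h, 1 at the high dose and 48 h, and 0 elsewhere. Matched scanner files with loess called 1 member, Traf1, for the dose at 48 h and 7 for the time at the low dose; with median centring these were 1 and 5. With no filter on dim probes, which tests 32539 genes, 0 were called for the time at the low dose. Arrays of one time only called 5 at the low dose and 3.5 h, and give no time difference. Leaving out a replicate gave 4 to 7 (low dose) and 8 (high dose) calls at 3.5 h, 0 to 1 at the high dose and 48 h, and 0 for either time difference. The replicate block called 0 and 5 (low and high dose, 48 h; Nfkbie was added, adjusted p = 0.0499 by limma), 9 and 10 (3.5 h), 0 for either dose difference, and 2 and 7 (time, low and high dose). The causes of these shifts were not tested. Some of the alternatives also used fewer arrays or tested more genes. Over all genes, counts across the alternatives ran from 0 to 97 (45 as reported) and 1 to 8688 (2933) at 48 h, 0 to 3308 (1279) and 0 to 11852 (5724) at 3.5 h, 0 to 21 (0) and 0 to 8 (0) for the dose at 48 h and 3.5 h, and 0 to 236 (26) and 0 to 4650 (2170) for the time. Median centring split the calls into 1827 higher and 6861 lower at the high dose and 48 h, against 1126 and 1807, 22 and 41 at the low dose and 48 h, against 40 and 5, 765 and 2543 at the low dose and 3.5 h, against 718 and 561, and 2875 and 8977 at the high dose and 3.5 h, against 2661 and 3063.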
